A study of Mus musculus with 4 samples.

Results

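The protein part of the cytosolic small ribosomal subunit is encoded by the Rps genes, and 31 of the 16442 genes in the deposited table belong to it. They are the rows named Rps with a number and at most the letter a, l or x, together with Rpsa. Kinases of the Rps6k family, Rps19bp1 and pseudogenes were left out, and so was Rps3a1, whose name ends in a number and which is given beside the members below. The choice used names only and no measured value.

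Ribosome footprints, the pieces of mRNA that ribosomes shield from nuclease, were sequenced from leukaemia stem cells of the bone marrow of C57BL/6 mice with leukaemia. There were 2 libraries from mice labelled Rreb1-KO (for KO replicate 2 the genotype entry says Rreb2-KO, but its title places it among the KO samples) and 2 from mice labelled WT. The labels used here do not say how the leukaemia was started, how the gene was removed, how the cells were sorted or how old the mice were. The series calls the replicates biological, and no label ties a library to an animal. The p-values thus rest on the spread among 4 libraries, which may be technical.

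Every ribosome carries a single copy of nearly all of these proteins, so cells make them in matched amounts. Their mRNAs are among the most abundant in growing cells and typically begin with a C followed by a run of pyrimidines, the terminal oligopyrimidine (TOP) tract, through which mTOR signalling sets how well they are translated. Loss of a single copy of several of the human genes, among them RPS19, causes Diamond-Blackfan anaemia, and RPS14 is lost in the 5q- syndrome of the bone marrow, so blood formation is sensitive to their dose.

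Rreb1, the gene named in the labels, was not lower in RNA in the libraries labelled KO, at 6.10 and 6.93 RPKM in KO replicates 1 and 2 against 3.33 and 3.25 RPKM in WT replicates 1 and 2. Its footprints were 12.9 and 8.19 RPKM against 14.1 and 12.8 RPKM. The labels do not say which part of the gene was removed. The libraries are therefore called KO-labelled, and each direction rests on the labels. Assigned footprint reads numbered 364087 and 274183 in the KO-labelled libraries and 878068 and 656249 in WT, a 3.2-fold range. The labelled cell type was checked through RNA of 7 stem and progenitor genes, all of which were detected. They summed to 170 and 167 RPKM in the KO-labelled libraries against 85.9 and 85.6 RPKM in WT (5 of 7 higher in both KO-labelled libraries and 1 lower). Markers of mature myeloid cells summed to 10786 and 10395 RPKM against 21365 and 20637 RPKM (6 of 8 lower in both KO-labelled libraries and 1 higher). Those of T and NK cells summed to 432 and 362 RPKM against 16.7 and 16.8 RPKM (4 of 6 higher and 0 lower), and those of erythroid cells to 422 and 514 RPKM against 84.9 and 76.5 RPKM (5 of 8 higher and 1 lower). The mast cell and basophil list summed to 282 and 272 RPKM against 29.9 and 26.8 RPKM, with 3 of 5 higher and Fcer1a at most 0.1 RPKM or not listed, and the stromal and endothelial list to 72.2 and 79.6 RPKM against 11.7 and 12 RPKM, with 3 of 5 higher and Col1a2 and Cdh5 so. The B cell list summed to 28.3 and 26.4 RPKM against 43 and 40.5 RPKM, with 1 of 5 higher, 1 lower and Ms4a1 and Pax5 so. Whether the mix of cells has a part in the results below was not tested, and in bulk samples more cells of a type and more RNA per cell cannot be told apart.

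The start of several members shows the TOP tract in the RefSeq annotation of GRCm38.p6, which holds promoter sequence for 23 of the 31 members. At an annotated start, 6 of these 23 (26.1%) have a C followed by at least 4 letters that are each C or T, read on the gene's own strand, against 2.91% of the 9410 protein-coding genes of the table, members included, with such a sequence. The 6 are printed because they carry the feature that is known to control translation of the family, and Rps27l is shown beside its near copy Rps27. Rps27l has another annotated start, which also lacks the tract and is not printed. Each run holds 10 bases before the start and 20 from it, and capitals mark the tract.
Rps6 (chr4:86857348-86857377, minus strand): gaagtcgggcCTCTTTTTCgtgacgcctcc
Rps10 (chr17:27635225-27635254, minus strand): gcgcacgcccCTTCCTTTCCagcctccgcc
Rps15a (chr7:118116128-118116157, minus strand): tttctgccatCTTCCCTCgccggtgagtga
Rps18 (chr17:33955646-33955675, minus strand): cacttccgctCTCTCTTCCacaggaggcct
Rps21 (chr2:180257369-180257398, plus strand): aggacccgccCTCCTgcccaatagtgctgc
Rps27 (chr3:90213629-90213658, minus strand): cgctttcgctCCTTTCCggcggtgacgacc
Rps27l (chr9:66946076-66946105, plus strand): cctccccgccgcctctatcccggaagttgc
Annotated starts can lie some bases from the true ones. Anywhere in these 30 bases, 16 of the 23 members (69.6%) held such a run, against 42.4% of the genes of the table. A match is a description of the letters, and no match says only that they are not at that start.

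RNA of the family was higher in the KO-labelled libraries. For all 31 genes both KO-labelled values lay above both WT values, and the median member had 181 and 194 RPKM in KO replicates 1 and 2 against 140 and 134 RPKM in WT replicates 1 and 2. Of the 19 members with enough footprints to enter the test, 19 rose and 0 fell (limma on log2 RPKM + 1, adjusted p under 0.05), while 33.1% of the 6389 tested genes rose and 27.7% fell. The median difference of these 19 was 0.551 on the log2 scale, against 0.043 over all tested genes. The groups did not overlap, with KO-labelled higher, for 44.4% of all tested genes. Together the 31 genes made up 1.67% and 1.85% of summed RNA RPKM in the KO-labelled libraries and 1.21% and 1.20% in WT.

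Rps20, a protein of the head of the subunit, had the largest difference. Its RNA was 39.6 and 56.7 RPKM in the KO-labelled libraries against 22 and 20.1 RPKM in WT. The groups did not overlap, at log2 1.14 ± 0.15 (SE over 2 libraries a group, limma adjusted p = 0.000594). Rps15, a head protein near the decoding site, had the most RNA per length of all members, 575 and 764 RPKM against 351 and 333 RPKM. Its log2 difference was 0.95 ± 0.13 (SE, limma adjusted p = 0.000654).

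The 12 members without enough footprints were tested in RNA with a filter on RNA, at least 1 RPKM in at least 2 libraries, which was added after the values were seen. All 31 members passed this filter, Rps10 only through its KO-labelled libraries (2.18 and 2.01 RPKM against 0.792 and 0.858 RPKM in WT). With it 29 of 31 rose and 0 fell (28 of 30 without Rps10), where 32.2% of 12194 genes rose and 21.1% fell, and 46.9% had both KO-labelled values above both WT values. The members that did not pass were Rps7, at 143 and 163 RPKM against 135 and 134 RPKM (limma adjusted p = 0.105), and Rps27, at 125 and 163 RPKM against 108 and 107 RPKM (limma adjusted p = 0.0501). Log2 differences ran from 0.188 for Rps7 to 1.14 for Rps20, with an SD of 0.225 over the members.

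By place in the subunit, 13 of 13 head proteins other than Rps10 rose in RNA with the filter on RNA, with a median log2 difference of 0.618. Of 16 body and platform proteins past that filter, 14 rose, with a median of 0.456, and no difference between these groups was tested. Over all 12194 genes past it, 32.2% rose and 21.1% fell. The 8 genes of the Diamond-Blackfan list other than Rps10 had a median of 0.531, with 6 that rose. Among them Rps19, which helps to mature the head, had 166 and 178 RPKM against 121 and 115 RPKM. Its log2 difference was 0.54 ± 0.07 (SE, limma adjusted p = 0.000491 in the fit of the 6389 tested genes and 0.00247 with the filter on RNA). Rps14, the platform protein of the 5q- syndrome, had 181 and 194 RPKM against 150.2 and 149.9 RPKM. Its difference was the second smallest among the 19 tested members, 0.32 ± 0.07 (SE, limma adjusted p = 0.0054). With median-of-ratios scaling it no longer passed, at 0.18 (limma adjusted p = 0.0684), nor without WT replicate 1 (limma adjusted p = 0.0743) or WT replicate 2 (limma adjusted p = 0.0802).

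**Figure D1:**
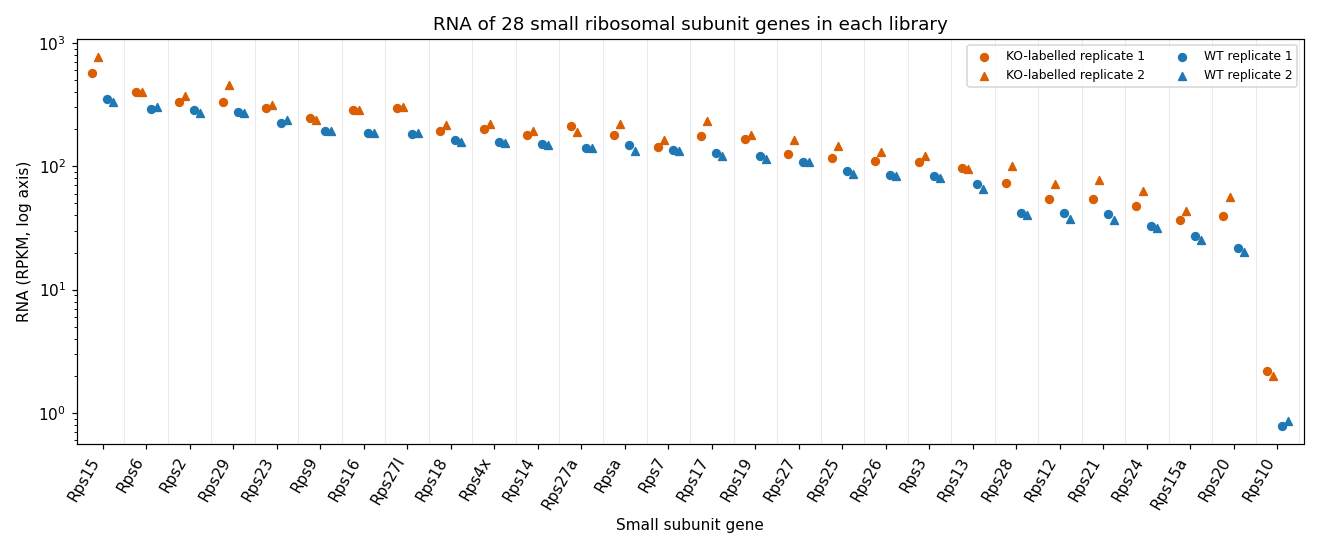
RNA of 28 of the 31 genes in RPKM on a log axis, ordered by the WT mean, with KO-labelled libraries as orange points left of the blue WT points. In every gene both orange points lie above both blue ones, and Rps10 lies far below the other genes, at 2.18 and 2.01 against 0.792 and 0.858 RPKM.

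In footprints none of the 19 tested members passed in either direction (limma, 0 higher and 0 lower, with 1 higher and 1 lower at an unadjusted p under 0.05), where 0.595% of the 6389 tested genes rose and 0.47% fell. At an unadjusted p under 0.05 the shares of all tested genes were 5.84% higher and 12.4% lower. Without KO replicate 1 the number of members that passed was 3 (2 higher, and Rps4x lower), where 2.13% of all tested genes rose and 3.13% fell. Without KO replicate 2 it was 2 (1 higher, and Rps26 lower), where 7.25% rose and 9.92% fell, and without either WT library it was 0. The median log2 difference of the tested members was 0.073, against -0.134 over all tested genes and -0.407 over 1684 tested genes with a coding length of at most 1000 nucleotides. In RNA the medians of these sets were 0.551, 0.043 and 0.129. Both KO-labelled libraries lay above both WT libraries for 4 of the 19, and below them for 3 of the 19. Over all tested genes these shares were 20.5% and 32.1%. Of the 19, 2 entered the test only through their KO-labelled libraries, Rpsa among them.

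The table adds 1 to each RPKM and so gives a floor of 1 to a gene with no reads. In all, 11 of 31 members were at the floor in at least 1 library, and 14 had a value of at most 10 in at least 1 library. Only Rps10 was at most 10 in all 4. KO replicate 2, the shallowest library, had 9 members at the floor and KO replicate 1 had 1, against 3 in WT replicate 1 and 1 in WT replicate 2. These were 3.23% and 29% of the members in the KO-labelled libraries against 9.68% and 3.23% in WT, where 40.7% and 42.6% of all genes of the table were at the floor in the KO-labelled libraries against 36.5% and 37.5% in WT. For 7 members the floor was reached in KO replicate 2 alone. These were Rps4x, Rps7, Rps13, Rps16, Rps20, Rps21 and Rps29. The smallest step that 1 read makes in a gene of 1 kilobase is 3.65 RPKM in KO replicate 2, against 1.14 RPKM in WT replicate 1.

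The KO-labelled libraries differed from each other more than the WT libraries did. Over the 31 members, log2 footprints correlated with a Pearson r of 0.626 between KO-labelled libraries and 0.813 between WT libraries. The same measure in RNA was 0.991 and 0.999. These are descriptions across genes that share each library's depth. The median gap between the libraries of a group over the 19 tested members was 0.717 on the log2 scale for KO-labelled and 0.419 for WT, and over all tested genes 0.555 and 0.274. KO replicate 1 was above KO replicate 2 in 11 of the 19 tested members, where 38.8% of all tested genes were. KO replicate 1 lay above both WT libraries in 11 of the 19 tested members, and KO replicate 2 in 6. Among all tested genes these shares were 32.3% and 38.2%. KO replicate 2 lay below both WT libraries in 7 of the 19 and KO replicate 1 in 7, where the shares of all tested genes were 43.8% and 52.9%. Of the 12 untested members, 10 were higher in KO replicate 1 than in both WT libraries. These members had few reads, and the share among all untested genes was not computed, so the count cannot be judged as a trait of the family.

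Rpsa, the laminin receptor homologue on the back of the subunit, had 91.7 and 22.8 RPKM of footprints against 7.13 and 20.7 RPKM. KO replicate 2 was only just above WT replicate 2, at log2 1.82 ± 0.84 (SE, limma adjusted p = 0.347). Rps9, a body protein bound early in assembly, was measured with more reads, 324 and 357 RPKM against 213 and 306 RPKM. Its groups did not overlap, yet its log2 difference of 0.41 ± 0.30 did not pass (SE, limma adjusted p = 0.523). Rps12, a head protein, was uneven within both groups, at 81.1 and 19 RPKM against 63.3 and 5.29 RPKM (limma adjusted p = 0.724).

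In the other direction, Rps15 had 177 and 226 RPKM of footprints in the KO-labelled libraries against 343 and 455 RPKM in WT. Both KO-labelled values were below both WT values, from 28 and 27 reads against 131 and 130 reads, but the difference did not pass over all genes (log2 -0.98 ± 0.30, SE, limma adjusted p = 0.206). Rps15a, a body protein, had 183 and 112 RPKM against 199 and 215 RPKM, also without overlap (limma adjusted p = 0.483). Rps26, at the mRNA exit on the platform, had 39.8 and 95.1 RPKM against 89.1 and 102 RPKM, where only KO replicate 1 stood apart (limma adjusted p = 0.548).

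Rps20 and Rps4x show how far 1 library could move a value. Rps20 had 138 RPKM in KO replicate 1 and no reads in KO replicate 2, against 9.57 and 72.6 RPKM in WT (log2 -1.24 ± 2.51, SE, limma adjusted p = 0.82). Rps4x, a body protein encoded on the X chromosome, had 80.1 RPKM and no reads against 14.4 and 27 RPKM, with -1.21 ± 2.11 (SE, limma adjusted p = 0.794). Without KO replicate 2 both differences were positive, 2.32 and 1.96, and without KO replicate 1 that of Rps4x was -4.38. Pooled reads scaled for depth, where KO replicate 1 held all KO-labelled reads, were higher in KO-labelled. The ratios were 2.16 for Rps20 (exact 95% interval 1.08 to 4.31) and 2.3 for Rps4x (1.24 to 4.26), for counting error only. With 5 added to each RPKM in place of 1 the log2 differences were -0.328 and -0.275. The negative values thus depend on the number added where KO replicate 2 had no reads. The groups overlapped in both genes.

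Some of the better covered members had small differences. Rps19 had 176 and 186 RPKM of footprints against 147 and 200.2 RPKM, at log2 0.07 ± 0.29 (SE, limma adjusted p = 0.905). Rps14 had 303 and 129 RPKM against 176 and 289 RPKM, each group spanning most of the other's range (limma adjusted p = 0.871). Rps3, a head protein at the mRNA entry channel, had 333 and 318 RPKM against 335 and 424 RPKM, just without overlap (limma adjusted p = 0.716). It was chosen after its values were seen, for its many reads. A p above the threshold does not show that the values were alike.

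**Figure D2:**
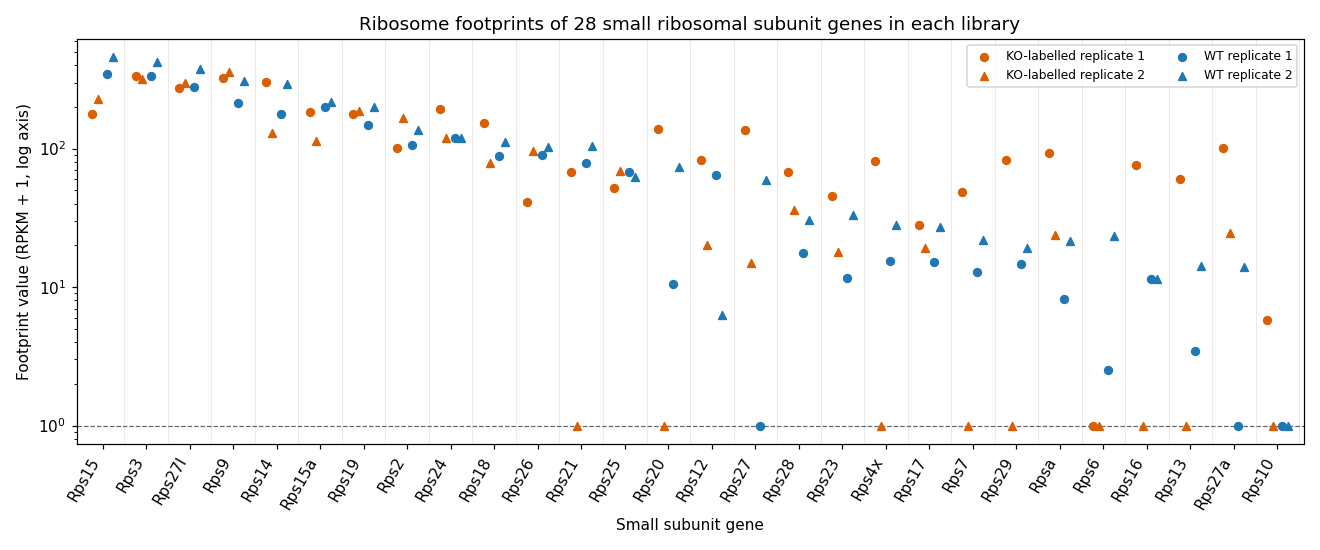
Footprints of 28 of the 31 genes as RPKM + 1 on a log axis, ordered by the WT mean, KO-labelled left of WT, with the floor of 1 dashed. Orange triangles on the dashed line are the 9 members without reads in KO replicate 2, and circles for KO replicate 1 lie above the floor for all of these but Rps6.

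Rps6, the kinase substrate whose phosphorylation reports mTOR signalling, had much RNA and few footprint reads. Its RNA was 402.23 and 402.24 RPKM in the KO-labelled libraries against 289.6 and 304 RPKM in WT, among the highest of the family. No footprint read fell on it in either KO-labelled library, against 1 and 11 reads in WT, at 1.52 and 22.4 RPKM. Of the 12 reads in WT, 11 came from WT replicate 2, and no fold is given. Rps27a, which is made as a fusion with ubiquitin, had 99.8 and 23.4 RPKM against 0 and 13 RPKM of footprints, from 17 and 3 reads against 0 and 4 reads. Its groups did not overlap, and pooled reads scaled for depth gave a ratio of 12 (exact 95% interval 4.03 to 48.4). The interval covers counting error only, since PCR copies are not independent molecules. The ratio was 4.2 without KO replicate 1, 17.9 without KO replicate 2 and 5.14 without WT replicate 1, and WT replicate 1 alone had no read to set it against. Both genes were below the filter and untested in footprints.

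The near copies Rps27 and Rps27l differed in footprint level. Rps27l, the copy known as a p53 target, had 274 and 298 RPKM of footprints against 275 and 378 RPKM, at log2 -0.18 ± 0.29 (SE, limma adjusted p = 0.781). Rps27 had 136 and 13.9 RPKM against 0 and 58.2 RPKM, from 13, 1, 0 and 10 reads in KO replicates 1 and 2 and WT replicates 1 and 2, and was not tested. In RNA Rps27l had 295 and 304 RPKM against 183 and 185 RPKM and rose by 0.70 ± 0.06 on the log2 scale (SE, limma adjusted p = 0.000103). Such near-identical copies can share reads, and the labels do not say how reads matching several places were assigned. The pair Rps4x and Rps4l could not be compared, since Rps4l is not analysed here.

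Processed pseudogenes are a second kind of copy. RefSeq names 117 pseudogenes after 23 of the 31 members. The table has 36 Rps pseudogene rows, of which 35 held no footprint in any library and 1 held footprints in 1 library, whereas 18 had RNA of at least 1 RPKM on average. Across the 31 members, the Spearman correlation of footprint RPKM with the number of such pseudogenes was -0.16 and -0.077 in KO replicates 1 and 2, against -0.277 and -0.371 in WT replicates 1 and 2. With RNA RPKM it was 0.144 and 0.227 against 0.145 and 0.164. These are weak and are given as descriptions. The levels of members with few footprints are uncertain, and whether shared reads were dropped was not tested.

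Translational efficiency (TE), the footprint value over the RNA value, varied widely within the family. Rps15a averaged 3.74 in the KO-labelled libraries and 7.65 in WT. In 15 members TE was under 1 in all 4 libraries, and in 6 it was at least 1 in all 4. The median over all members, where a member without reads takes 1 over its RNA value, was 0.785 and 0.297 in KO replicates 1 and 2 against 0.535 and 0.709 in WT replicates 1 and 2. Over members with footprints in the library it was 0.816 and 0.459 against 0.632 and 0.711. All genes with footprints had medians of 2.09 and 2.26 against 2.14 and 2.23.

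No member passed in TE (limma, 0 of 19, with 1 higher and 1 lower at an unadjusted p under 0.05), and 0% of all tested genes did. At an unadjusted p under 0.05 the shares of all tested genes were 3.02% higher and 9.99% lower. Without KO replicate 2, Rps15 passed at a log2 difference of -1.90 (limma adjusted p = 0.0482), in a fit where 5.85% of all tested genes fell and 5.09% rose. The median log2 difference was -0.466 over the 19 tested members, -0.152 over all tested genes and -0.517 over tested genes with a coding length of at most 1000 nucleotides. Without overlap, 7 of 19 were lower and 1 of 19 was higher in the KO-labelled libraries, where the shares of all tested genes were 32.3% and 15.6%. Rps15 had the smallest p, with a TE of 0.309 and 0.297 against 0.978 and 1.37. The KO-labelled values were nearly equal and far below WT, at log2 -1.93 ± 0.40 (SE, limma adjusted p = 0.29). Rps15a was at 4.9 and 2.57 against 7.02 and 8.27 (limma adjusted p = 0.383), Rps26 at 0.369 and 0.728 against 1.04 and 1.21 (limma adjusted p = 0.411), and Rps27l at 0.93 and 0.979 against 1.5 and 2.03 (limma adjusted p = 0.392).

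The authors' deposited table gives a p under 0.05 to 5 members, all with lower mean TE in the KO-labelled libraries. These deposited values are 0.0019 for Rps25, 0.0231 for Rps15, 0.0463 for Rps27l, 0.0488 for Rps15a and 0.0498 for Rps26. The header calls them adjusted, yet for 16250 of 16250 genes compared they matched, within 1e-06, a one-sided equal-variance comparison of TE with no adjustment. The authors' deposited table puts 20.9% of all its genes under 0.05.

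**Figure D3:**
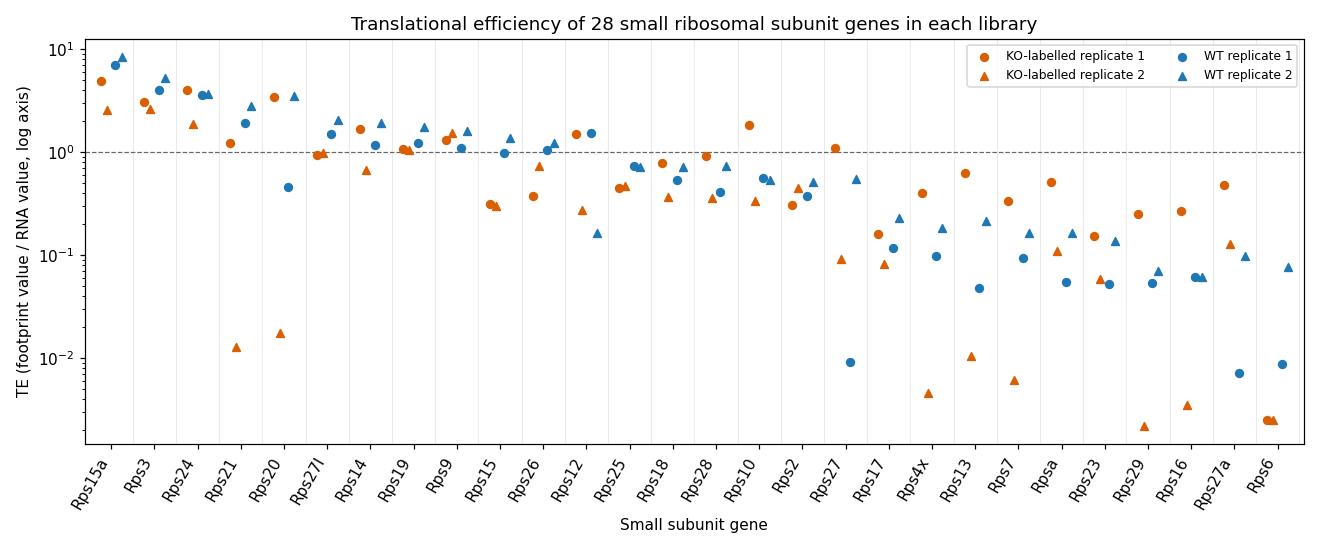
TE of 28 of the 31 genes on a log axis, ordered by the WT mean, KO-labelled left of WT, with a TE of 1 dashed. Rps15a has the highest TE in WT, at 4.9 and 2.57 in KO replicates 1 and 2 against 7.02 and 8.27 in WT replicates 1 and 2, and the lowest orange triangles are members without reads in KO replicate 2.

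**Figure D4:**
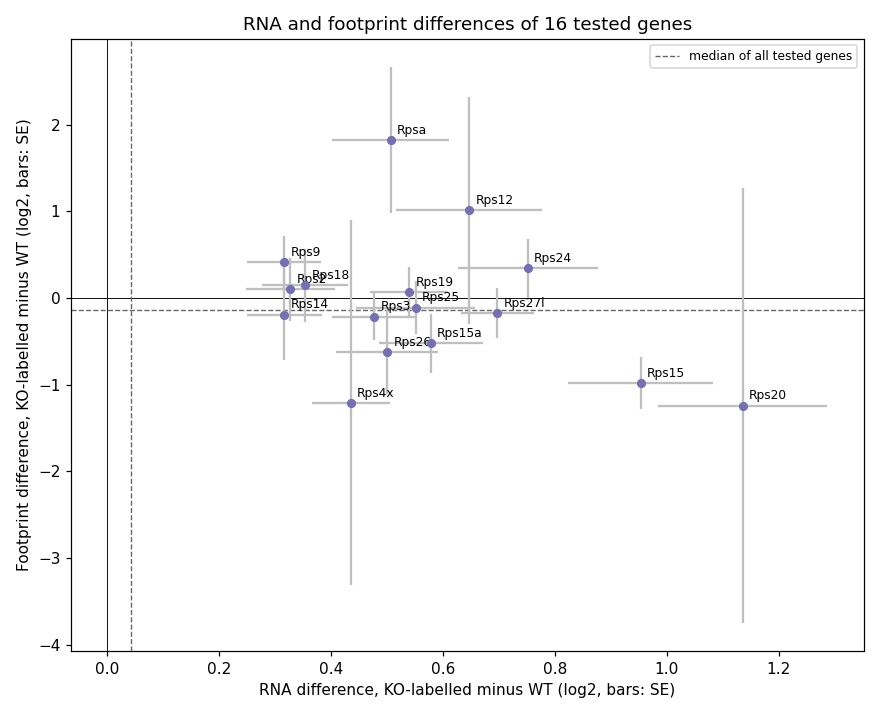
Log2 differences, KO-labelled minus WT, of 16 of the 19 tested genes in RNA (horizontal) and footprints (vertical), with SE bars and the medians of all tested genes dashed. Every gene lies right of 0 in RNA, while footprint differences lie on both sides of 0 with wide bars for Rps20 and Rps4x.

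Proteins of the subunit outside the Rps naming rule were similar in RNA. Rps3a1, a platform protein, had 670 and 748 RPKM against 487 and 489 RPKM (log2 difference 0.54 ± 0.08, SE, limma adjusted p = 0.00117). Rack1, a signalling scaffold on the head, had 148 and 166 RPKM against 118 and 111 RPKM (log2 difference 0.45 ± 0.08, SE, limma adjusted p = 0.00215). Rack1 had 731 and 702 RPKM of footprints against 1083 and 782 RPKM, more than any member in WT (limma adjusted p = 0.556). Fau, which encodes a subunit protein fused to a ubiquitin-like one, had 363 and 396 RPKM of RNA against 306 and 296 RPKM (limma adjusted p = 0.0163 with the filter on RNA).

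Proteins of the large subunit, matched by name in the same way, gave RNA values of like size. With the filter on RNA 38 of 48 tested genes rose and 1 fell, with a median log2 difference of 0.514. Of all 12194 genes past that filter, 32.2% rose and 21.1% fell. In footprints none of 20 tested large subunit genes passed (limma, with 3 higher and 1 lower at an unadjusted p under 0.05). Over all tested genes 0.595% rose and 0.47% fell, and 5.84% and 12.4% did at that unadjusted p. The large subunit genes made up 2.91% and 3.25% of summed RNA RPKM against 2.31% and 2.30%. The difference between the subunits was not tested. In RNA 33.1% of all 6389 tested genes rose and 27.7% fell. Of 14 other TOP mRNAs, 10 rose in RNA and 0 fell, with a median of 0.421. Among these Pabpc1, which binds poly(A) tails, had 111 ± 9.07 against 58.7 ± 2.88 RPKM, Npm1, a nucleolar chaperone, 199.6 ± 13.8 against 119 ± 1.11 RPKM, and Nap1l1, a histone chaperone, 48.5 ± 0.573 against 30.2 ± 0.934 RPKM (SD, n = 2 each).

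Factors that build or use the subunit had no such common direction in RNA. Of 38 tested factors that assemble it, 7 rose and 13 fell, with a median of -0.015. Among all tested genes 33.1% rose and 27.7% fell, with a median of 0.043. Tsr3, which modifies the ribosomal RNA of the subunit, had 55.8 ± 0.299 against 33.5 ± 0.18 RPKM, and Wdr3, of the early assembly particle, 13.9 ± 0.364 against 21.1 ± 0.667 RPKM (SD, n = 2 each). Of 21 tested initiation factors that act on it, 8 rose and 6 fell, with a median of 0.081. Eif3f had 77.6 ± 8.98 against 51.6 ± 0.347 RPKM, and Eif4h 69 ± 0.673 against 88 ± 1.66 RPKM (SD, n = 2 each). Of 8 tested regulators of TOP mRNAs and mTOR, 4 rose and 2 fell. Larp1, which binds TOP tracts, had 4.91 ± 1.35 against 2.61 ± 0.322 RPKM (SD, n = 2 each). In footprints 0 genes of these 3 lists passed limma, with 0 higher and 1 lower at an unadjusted p under 0.05. Among all tested genes 0.595% rose and 0.47% fell in footprints, and 5.84% and 12.4% did at that unadjusted p.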

How the data were processed

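A single table of 16442 genes was deposited. The tools named, without roles, per the submitters' processing notes are DESeq2, featureCounts, HISAT2 2.1.0 and CASAVA. The build named there is hg38, a human one, though samples and gene symbols are mouse. The deposited footprint values behaved as RPKM plus 1, read from the values. Per the file headers, the other columns are TE, a ratio, and a p-value. RNA was the footprint value over TE, minus 1, and the depth of the input RNA was not computed here. Read numbers were rebuilt from the steps between low RPKM values (tolerance 0.002 reads) wherever at least 2 libraries had footprints (10536 of 10536 genes). They are the smallest whole numbers that fit, so a gene's reads may be too small by a common factor. Such a factor leaves ratios as they are, but it can keep a gene out of the test, since the filter used these reads. Utp18, with a rebuilt coding length of 127.38, was untested at 43.1 and 28.6 RPKM against 35.8 and 35.9 RPKM. Its rebuilt reads were 2 and 1 against 4 and 3. Genes with at least 20 CPM of these reads in at least 2 libraries were tested (6389) by limma 3.58.1 (R 4.3.3, eBayes with trend) on log2(RPKM + 1) or log2 TE, with group as the only term, two-sided, with Benjamini-Hochberg adjustment over all tested genes at 0.05. The log2(RPKM + 1) scale understates changes of genes that are low in all libraries. Where a library of a better covered gene has no reads, the difference depends on the number added. Recovery and fit were tested on simulated data. For the fit the simulated spread was set alike in both groups, whereas the KO-labelled libraries here differed from each other more than the WT libraries did. That test thus does not show how the fit performs on these data. Python 3.11.15 was used for the rest.

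Members, lists and tests were chosen with earlier results of these data known. Named in full were the 5 tested members with the largest and the 5 with the smallest footprint difference, the paralogues, Rps27a, Rps6, Rps14 and Rps19, and in RNA the 3 largest rises. Of the other lists, up to 3 genes a direction were named by p. Some genes that these rules pick are not reported here, and figures leave them out. Alternatives covered the pseudocount, the filter, scaling, the replicate block, limma-voom and each library left out. Same-numbered libraries shared little in footprints and TE, where their deviations correlated with r = 0.023 and 0.008. In RNA r was -0.335, so libraries of different number deviated together to some extent, and the cause was not tested. The numbers were not taken as pairs.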

Additional observations from a re-analysis of the deposited data

How the results depend on the processing

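The count of members called in footprints, 0 in the reported fit, stayed 0 with a pseudocount of 0.5, without a filter, at 50 CPM, with both other scalings and with limma-voom, and was 1 with a pseudocount of 5. Leaving out a library gave 0 to 3 in footprints, 14 to 19 in RNA and 0 to 1 in TE, where the spread of the remaining library is taken from the other group. Rps4x was among the 3 without KO replicate 1 and Rps26 among the 2 without KO replicate 2, and the 1 in TE without KO replicate 2 was Rps15. In RNA 24 of 31 members rose without a filter, 29 with the filter on RNA, and 10 of 10 at 50 CPM, where fewer genes are tested. Median-of-ratios scaling moved the medians of all genes to -0.079 in RNA and 0.079 in TE, and that of the members to 0.415, with 16 of 19 members called. The replicate block gave 0, 19 and 0 members in footprints, RNA and TE and changed no call. A crossed pairing, chosen after seeing the data, gave 1, 19 and 0. The counts without Rps10 and the ratios of Rps27a with a library left out were likewise added after seeing the data.

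Signs turned for members not called in the reported fit, and the cause was not tested. With a library left out, footprint differences ran from -0.666 to 2.69 for Rps12, -0.804 to 0.424 for Rps14, -0.149 to 0.295 for Rps19, -4.8 to 2.32 for Rps20, -0.402 to 0.052 for Rps27l and -4.38 to 1.96 for Rps4x. TE differences ran from -1.23 to 1.96 for Rps12, -1.17 to 0.158 for Rps14, -6.19 to 1.44 for Rps20, -4.87 to 1.585 for Rps4x and -0.173 to 0.365 for Rps9. With limma-voom Rps20 was at 0.342 in footprints. Over all genes the footprint calls, 68 as reported, ran from 0 to 1097 with a library left out, and the TE calls, 0 as reported, from 0 to 699. In footprints 12 of 31 members had too few rebuilt reads to test, and the cause was not tested.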
